A study of Mus musculus with 2 samples.

Results

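Alb, Afp, Afm and Gc, 4 genes of the albumin family and called the family genes here, were followed in mouse embryonic liver RNA. So were Zbtb20, Zhx2 and Zfhx3, 3 genes reported to repress Afp in the liver after birth. These 7 genes were chosen by name, from chromosome position and reported role, out of the 43346 mouse genes in the deposited tables. All 7 were matched by gene identifier. Total RNA was sequenced in 2 libraries that form 1 group, the liver of healthy mouse embryos at day 12.5. Replicate 1 was a pool of livers from 120 embryos and replicate 2 a pool from 88 embryos, of the inbred strain B6NCrl, with both sexes in each pool. The labels name no altered gene and no treatment. The labels give both pools the same donor identifier. Values therefore describe pooled tissue and not the variation between embryos, and with 1 group no p-value was computed. TPM are the authors' levels, scaled by transcript length and to a fixed total, so genes can be compared with each other within a library, and errors are the SD over both libraries (n = 2).

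The albumin family arose by duplication, and its proteins are secreted mainly by the liver and carry small ligands in plasma. Albumin (Alb) maintains the osmotic pressure of blood and binds fatty acids, alpha-fetoprotein (Afp) is the main serum protein of the fetus, afamin (Afm) binds vitamin E and Wnt proteins, and the vitamin D-binding protein (Gc) also scavenges actin. Hepatoblasts and yolk sac endoderm make Afp before birth, and its full silencing in the liver after birth requires the zinc finger factor Zbtb20 and the zinc finger and homeobox factor Zhx2, while Zfhx3 (ATBF1) was described in human liver cancer cells as a repressor acting on the AFP enhancer.

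Alb (ENSMUSG00000029368.9, chr5:90460897-90476602, plus strand), Afp (ENSMUSG00000054932.3, chr5:90490737-90508907, plus strand) and Afm (ENSMUSG00000029369.13, chr5:90518932-90553543, plus strand) lie in a row on assembly mm10. The gap between Alb and Afp was 14.1 kb and that between Afp and Afm 10.0 kb. Gc (ENSMUSG00000035540.8, chr5:89417522-89457898, minus strand) lies 1003 kb before Alb in the opposite orientation. In the GENCODE M21 annotation, the transcripts of Alb, Afp and Afm had 15 exons, 14 of them coding, and that of Gc had 13 exons, 12 of them coding. The coding sequences were 1824, 1815, 1824 and 1428 bases long. No stretch of 31 bases was shared by the transcripts of any of the 6 pairs of family genes, so no long exact match joined them.

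The promoters of the 4 family genes are shown because each held the short motif GTTAAT. Windows ran from 250 bases before to 50 bases after the RefSeq start (build GRCm38.p6), and capitals mark GTTAAT, written ATTAAC where it lies on the other strand, and TATAAA, the TATA box. Each sequence is written 5′ to 3′ on the strand of its gene, at chr5:90460620-90460919 (plus) for Alb, chr5:90490464-90490763 (plus) for Afp, chr5:90518699-90518998 (plus) for Afm and chr5:89457849-89458148 (minus) for Gc.
Alb: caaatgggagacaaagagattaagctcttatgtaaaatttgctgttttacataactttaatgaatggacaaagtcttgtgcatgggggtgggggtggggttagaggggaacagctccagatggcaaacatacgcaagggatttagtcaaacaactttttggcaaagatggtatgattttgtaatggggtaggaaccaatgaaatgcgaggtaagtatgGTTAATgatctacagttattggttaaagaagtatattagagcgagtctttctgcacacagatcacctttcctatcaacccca
Afp: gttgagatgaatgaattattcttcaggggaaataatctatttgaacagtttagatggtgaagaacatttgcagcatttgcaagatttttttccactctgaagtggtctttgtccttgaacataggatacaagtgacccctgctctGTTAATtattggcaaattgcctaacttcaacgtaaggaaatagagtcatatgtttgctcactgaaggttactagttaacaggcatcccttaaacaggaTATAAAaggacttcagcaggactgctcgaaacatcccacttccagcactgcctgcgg
Afm: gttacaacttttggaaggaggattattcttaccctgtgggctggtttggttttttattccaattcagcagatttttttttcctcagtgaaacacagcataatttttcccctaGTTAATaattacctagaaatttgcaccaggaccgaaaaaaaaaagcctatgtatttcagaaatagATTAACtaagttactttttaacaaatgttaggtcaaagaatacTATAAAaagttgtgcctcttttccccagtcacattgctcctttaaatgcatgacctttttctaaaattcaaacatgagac
Gc: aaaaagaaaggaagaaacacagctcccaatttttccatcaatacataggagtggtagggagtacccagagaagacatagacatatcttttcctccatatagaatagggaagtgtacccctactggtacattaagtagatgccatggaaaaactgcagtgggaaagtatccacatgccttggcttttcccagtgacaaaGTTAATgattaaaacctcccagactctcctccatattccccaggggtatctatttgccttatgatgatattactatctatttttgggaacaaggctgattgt

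GTTAAT was found in the windows of all 4 family genes. It was found in neither of the windows of Zbtb20 and Zfhx3, and 6 of the 7 genes had a window. Searched on both strands, it occurred in 7.10% of the 32851 promoter windows of the mouse. It began 32 bases before the RefSeq start of Alb, 105 bases before that of Afp, 52 bases before that of Gc, and 138 and 73 bases before that of Afm, where the nearer match lies on the minus strand. The windows of the family were rich in A and T, with a GC content of 40.0% for Alb and Afp, 33.0% for Afm and 40.3% for Gc against a median of 52.7% over all windows. Among the 2997 windows with a GC content in that range, a share calculated after the matches had been seen, 16.1% held GTTAAT. The windows of Zbtb20 and Zfhx3, with a GC content of 43.3% and 67.3%, lay outside that range. The full palindrome, GTTAAT followed by any base and ATTAAC, was in none of the 6 windows and in 3 windows of the mouse, or 0.00913%.

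Of the other motifs, CCAAT was also in the window of every family gene, while TATAAA, the C/EBP core and AGGTCA divided the family. TATAAA began 7 bases before the RefSeq start of Afp and 30 bases before the RefSeq start of Afm. From the GENCODE starts, the distances were 30 bases for Afp and 13 bases for Afm, and GTTAAT lay 59 bases before the GENCODE start of Alb. TATAAA was not in the windows of Alb and Gc, and no other spelling of the TATA box was searched in any window. It was in 13.6% of all windows and in 36.3% of those with a GC content like that of the family. CCAAT was in 5 of the 6 windows, all but that of Zfhx3, against 37.4% of all windows. The C/EBP core, named for the CCAAT/enhancer-binding proteins, was in the windows of Alb and Afp and in 10.8% of all windows. The nuclear receptor half-site AGGTCA was in that of Afm, against 16.3% of all windows. TGTTTAC, bound by FOXA factors, was in none of the 6 windows and in 3.65% of all. Of these other motifs, only TATAAA was also set against windows with a GC content like that of the family. These are matches of letters in 300 bases, and no binding was measured.

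Afp was the most abundant of the 7 genes. It had 5312 TPM in replicate 1 (95% exact Poisson interval 5294 to 5330) and 5136 TPM in replicate 2 (5118 to 5155), from 332228 and 297374 expected counts. This placed it 11th of all mouse genes and 8th of the protein-coding genes by mean TPM, between the histone gene Hist1h2ap at 5284 TPM and Gpx1, the gene of a glutathione peroxidase, at 5199 TPM, and its values overlapped those of both. Next above and below those stood the ferritin genes Ftl1 at 6961 TPM and Fth1 at 4837 TPM. In bulk tissue, fewer cells of a type and less RNA per cell cannot be told apart, so these levels are of the whole organ and not of the hepatoblast.

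Alb had 898 TPM in replicate 1 (890 to 905) and 913 TPM in replicate 2 (905 to 921), from 54933 and 51714 expected counts. It ranked 88th of all genes and 74th of the protein-coding ones, near the chaperone gene Hsp90ab1 at 904 TPM and the fatty acid-binding protein gene Fabp5 at 919 TPM. Gc had 23.5 TPM in replicate 1 (22.2 to 24.8) and 31.4 TPM in replicate 2 (29.8 to 33.0), a mean of 27.4 ± 5.59 TPM and rank 4050. Afm had 7.06 TPM in replicate 1 (6.42 to 7.75) and 8.01 TPM in replicate 2 (7.29 to 8.78), a mean of 7.54 ± 0.672 TPM and rank 8086. The 4 family genes thus spread over nearly 3 orders of magnitude within a single organ, in the same order in both libraries, and the values of no 2 of them overlapped.

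**Figure D1:**
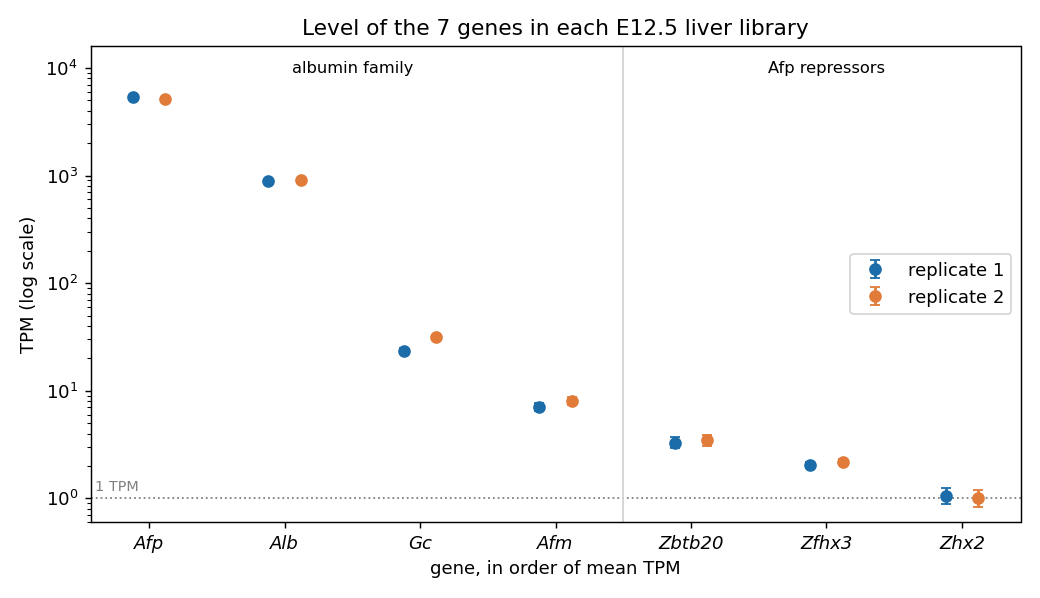
Level of the 7 genes in each library, in TPM on a log axis. Points are libraries, and bars are 95% Poisson intervals, which cover counting error only. Afp (5312 and 5136 TPM) and Alb (898 and 913 TPM) lie far above Gc and Afm, and the 3 repressors lie lowest, between 3.47 and 1.00 TPM, in an order that changes when counts are divided by the longest model (Zbtb20 to Zfhx3 0.192) or not divided by length (0.314).

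Shares and ratios within a library compare the family genes free of the depth of sequencing. Afp made up 85.1% of the summed TPM of the family in replicate 1 and 84.4% in replicate 2, and Alb 14.4% and 15.0%. Gc held 0.376% and 0.515%, and Afm 0.113% and 0.132%. Afp exceeded Afm by 752 times in replicate 1 and by 641 times in replicate 2 (697 ± 78.6), although the genes are neighbours. Alb exceeded Gc by 38.3 and 29.1 times (33.7 ± 6.47) and Afm by 127 and 114 times (121 ± 9.32), and Gc exceeded Afm by 3.32 and 3.92 times (3.62 ± 0.419). Together the family took 6240 TPM in replicate 1 against 6089 TPM in replicate 2, and held 1.07% and 1.04% of the expected counts of mouse genes.

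The genes around the family spanned a wide range of levels. Of the 17 other protein-coding genes within 500 kb of a family gene, 10 had at least 1 TPM in both libraries, where 54.5% of all protein-coding genes did, and Npffr2 and Cxcl15 had no reads in either. The nearest protein-coding gene to Afm, 5830473C10Rik at 7.56 kb, had 0.12 TPM in replicate 1 against 0.19 TPM in replicate 2. Before Alb, Gm9958 lies at 92.4 kb and had 2.79 and 3.01 TPM, and Ankrd17 lies at 94.3 kb and had 8.47 and 8.64 TPM. The highest neighbours were the platelet chemokine genes Pf4, at 664 and 571 TPM, and Ppbp, at 152 and 143 TPM. Cox18, for a factor of cytochrome oxidase assembly, had 20.9 and 22.2 TPM, and Mthfd2l, of mitochondrial folate metabolism, 3.93 and 4.51 TPM. Rassf6 had 2.65 and 3.06 TPM, the bicarbonate cotransporter gene Slc4a4 1.21 and 1.40 TPM, the procollagen protease gene Adamts3 1.13 TPM on average and the chemokine gene Cxcl5 1.27 and 1.04 TPM. The remaining 4 stayed below 1 TPM. They were Cxcl1 with 0.19 and 0.20 TPM, the growth factor gene Epgn with 0.04 and 0.06 TPM, Cxcl3 with 0 and 1 read and Cxcl2 with 0 and 5 reads.

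**Figure D2:**
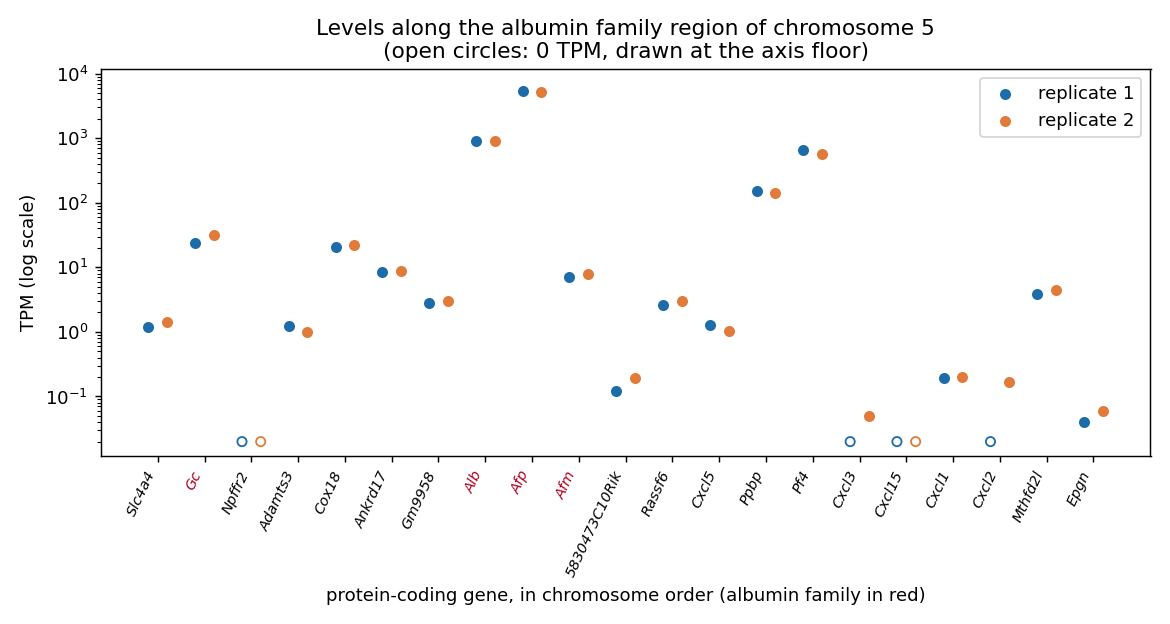
TPM in each library, on a log axis, of Alb, Afp, Afm and Gc and of the other protein-coding genes within 500 kb of one, in chromosome order. Points are libraries, and open circles at the foot are values of 0. Afp and Alb stand out, the highest of the other genes is Pf4, and the nearest genes on either side of the row of Alb, Afp and Afm lie below 10 TPM.

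The 3 repressor genes were all detected, at levels far below those of Afp and Alb. Zbtb20 (ENSMUSG00000022708.12, chr16:42875881-43642602, plus strand) had 3.30 TPM in replicate 1 (2.94 to 3.70) and 3.47 TPM in replicate 2 (3.07 to 3.90). Zfhx3 (ENSMUSG00000038872.9, chr8:107942644-108961630, plus strand) had 2.05 TPM in replicate 1 (1.92 to 2.19) and 2.17 TPM in replicate 2 (2.03 to 2.32). Zhx2 (ENSMUSG00000071757.6, chr15:57694665-57839832, plus strand) had 1.05 TPM in replicate 1 (0.884 to 1.24) and 1.00 TPM in replicate 2 (0.832 to 1.19). They ranked 10261st, 11450th and 13124th, and their sum was 6.40 TPM in replicate 1 against 6.64 TPM in replicate 2. The values of no 2 repressors overlapped, and the median over all protein-coding genes was 2.02 TPM.

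The order of the repressors depended on how reads were divided by length. By TPM, Zbtb20 exceeded Zhx2 by 3.14 times in replicate 1 and 3.47 times in replicate 2, and Zfhx3 by 1.61 and 1.60 times. Zfhx3 exceeded Zhx2 by 1.95 and 2.17 times. By expected counts, however, Zfhx3 had 917 and 911, Zbtb20 297 and 277 and Zhx2 142 and 125. When counts were divided by the length of the longest transcript model of each gene, the ratio of Zbtb20 to Zhx2 was 0.350 and that of Zbtb20 to Zfhx3 was 0.192, so that Zbtb20 came last. By counts not divided by length, Zbtb20 stood at 0.314 of Zfhx3, and Zfhx3 also passed Afm, with 26.1 against 12.9 CPM (counts scaled to a common library total).

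Zbtb20 had 21 transcript models in the authors' annotation, of which 10 held reads in replicate 1, 12 in replicate 2 and 9 in both. The longest, Zbtb20-204 of 26901 bases, took 156 reads in replicate 1 and 157 in replicate 2. It thus held 52.4% and 56.7% of the reads of the gene, but 5.47% and 5.75% of its TPM. The model with most TPM in both libraries, Zbtb20-202, held 24.0% and 17.2%, from 66.2 and 46.2 estimated reads. Zbtb20-212, a model with a retained intron, held 17.6% and 16.4% of the TPM from 10 and 9 reads, and Zbtb20-218 held 15.8% and 4.89% from 8.09 and 2.50 reads. By class, the 12 coding models held 88.7% of the reads in replicate 1 and slightly more in replicate 2, but 1.72 and 1.86 TPM, which is 52.3% and 53.4% of its TPM. The 4 retained-intron models held 1.38 and 1.18 TPM, and the 5 processed transcripts 0.19 and 0.44 TPM. On its coding models alone, Zbtb20 thus stood below the 2.05 and 2.17 TPM of Zfhx3, whose 2 models are both coding. The models overlap, so their shares are estimates of the authors' quantifier.

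**Figure D3:**
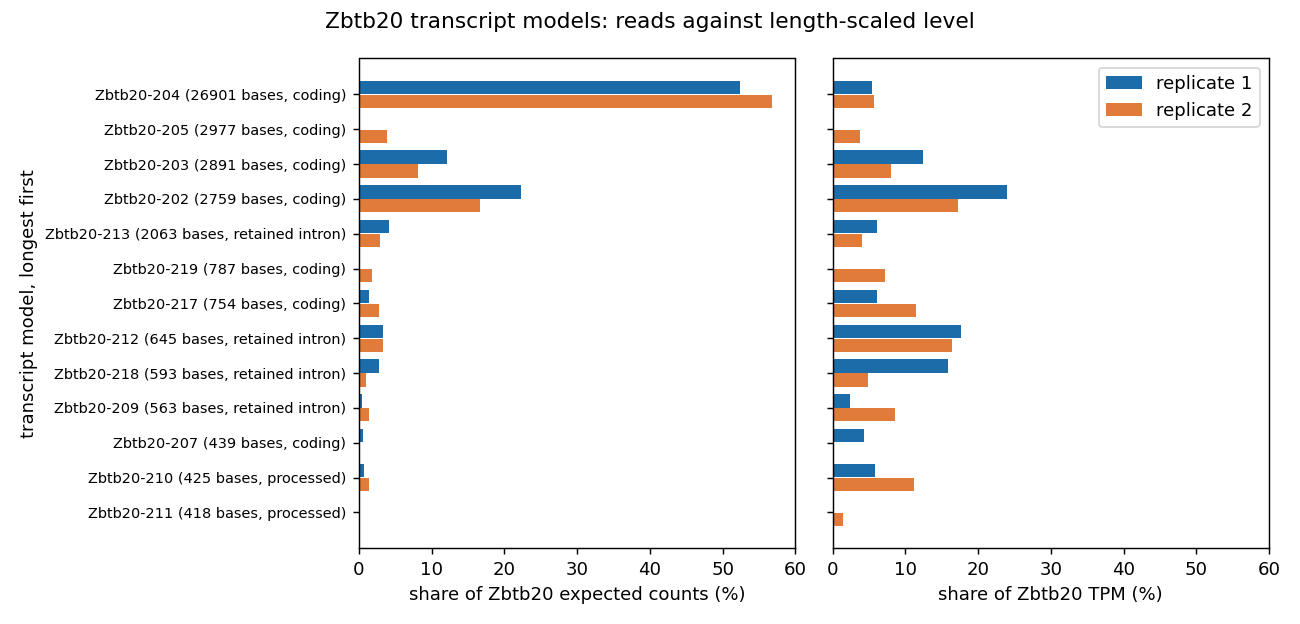
Share of Zbtb20 reads and share of Zbtb20 TPM held by each transcript model with reads, for both libraries. Zbtb20-204 holds over 50% of the reads but under 6% of the TPM.

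The other genes were simpler. Alb, Afp and Gc each had 1 model in the annotation used by the authors, although M21 lists 3, 5 and 2, so their isoforms were not resolved. Afm-201 held 90.7% of the TPM of Afm in replicate 1 and 92.5% in replicate 2, and Afm-202 the rest. Zfhx3-201, of 16433 bases, held 85.9% and 87.2% of the TPM of Zfhx3 but 98.9% and nearly the same share of its reads, as Zfhx3-202 drew only 10 and 9 reads. All Zhx2 reads were in Zhx2-201.

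The pools differed little in most of the 7 genes. The ratio of TPM, replicate 1 over replicate 2, was 0.983 for Alb (95% Clopper-Pearson interval 0.972 to 0.995), 1.03 for Afp (1.029 to 1.039), 0.881 for Afm (0.772 to 1.007) and 0.748 for Gc (0.694 to 0.806). For the repressors it was 0.951 for Zbtb20 (0.805 to 1.12), 1.05 for Zhx2 (0.820 to 1.35) and 0.945 for Zfhx3 (0.861 to 1.04). Centred on the spike-ins, the log2 ratio was 0.092 for Alb, 0.05 for Zbtb20 and 0.04 for Zfhx3, so these turned from below to above equality. At a size limit of 0.32 on the log2 scale, 1 of the 7 genes, Gc, was lower in replicate 1 and none was higher. Of the 13017 genes whose expected counts averaged 50 or more, 4.92% were lower in replicate 1 at that limit, 3.76% were higher and 8.68% were either.

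Gc was therefore the gene of the 7 that varied most between the pools, with 1265 reads in replicate 1 and 1565 in replicate 2 and a log2 ratio of -0.42. Of the 13017 genes, 4.99% lay at least as far from equality. Among the 4778 genes within 2-fold of its abundance, a set chosen after its value was seen, 0.628% did. Centred on the spike-ins, a scaling that moves the median of all genes from 0.00626 to 0.122, its log2 ratio was -0.30, which is inside the size limit. Each pool was 1 library, so this difference had no replicate check.

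Marker lists of the cell types in the organ were set beside this difference. All 6 hepatoblast markers were detected, and their summed level was 2253 TPM in replicate 1 against 2251 TPM in replicate 2, with a median log2 ratio of 0.01, 4 higher and 2 lower. Of the 4 markers chosen for yolk sac endoderm, another source of the family, 3 were detected. Apob had 56.3 TPM in replicate 1 against 60.1 TPM in replicate 2, Rhox5 6.54 and 6.31 TPM and Amn 1.32 and 1.17 TPM. The fourth, Cubn, had 0.06 and 0.17 TPM. The 4 summed to 64.2 TPM in replicate 1 against 67.8 TPM in replicate 2, mostly Apob. Whether any of these reads came from yolk sac endoderm was not tested. Of the mesenchymal markers, 3 of 4 were detected, with a sum of 132 TPM in replicate 1 against 148 TPM in replicate 2, mostly Col1a1. None of 3 neural markers and none of 4 markers of gut, pancreas and lung was detected, and Nkx2-1 had no reads. All markers of erythroid cells (5 genes), macrophages (4) and endothelium (4) were detected, where 54.5% of all protein-coding genes were. The erythroid markers summed to 1891 TPM in replicate 1 against 1931 TPM in replicate 2. The macrophage markers summed to 61.6 against 59.6 TPM and the endothelial ones to 67.9 against 66.8 TPM. The part of these cell types in the Gc difference was not tested.

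**Figure D4:**
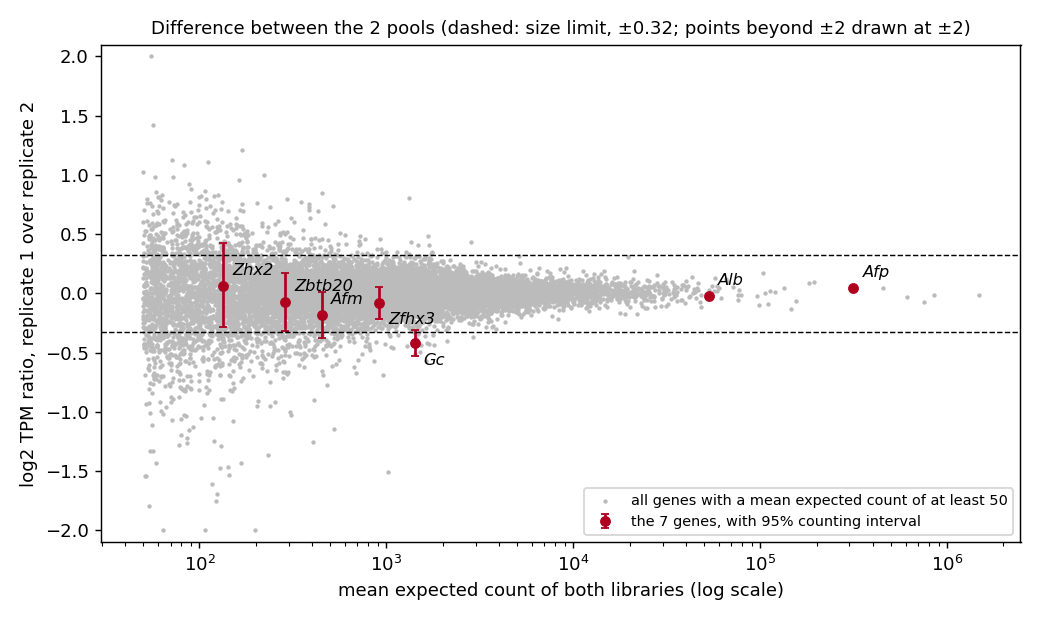
Ratio between the pools (replicate 1 over replicate 2) against abundance for the 13017 genes tested, in grey, with the 7 genes named. Dashed lines mark the size limit of 0.32 on the log2 scale, and Gc alone of the 7 lies past them.

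The activators of liver promoters were set beside the repressors. Of 22 listed, 21 were detected at 1 TPM or more in both libraries, with a median of 7.18 TPM, where 29.6% of all mouse genes and 54.5% of protein-coding genes passed. The highest were Ctnnb1, which encodes beta-catenin, with 115 TPM in replicate 1 against 114 TPM in replicate 2, and the pioneer factor gene Foxa3 with 23.3 and 22.1 TPM. Gata4 had 19.9 and 24.1 TPM, Tcf7l2, a partner of beta-catenin, 19.8 and 19.7 TPM and Cebpb 19.7 TPM on average. The lowest was Dbp, an activator of the Alb promoter that follows the daily clock, at 1.53 and 0.99 TPM.

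Other reported negative regulators of Afp were mostly present. Of 7, 5 were detected, where 54.5% of all protein-coding genes were, and the list median was 11.4 TPM. The p53 gene Trp53 had 95.7 TPM in replicate 1 against 96.0 TPM in replicate 2, the glucocorticoid receptor gene Nr3c1 19.4 and 19.5 TPM, Nr2f2 14.0 and 16.6 TPM, the thyroid hormone receptor gene Thra 11.5 and 11.3 TPM and Nr2f1 1.21 and 1.46 TPM. All 6 paralogs of the repressors were detected, beside the same 54.5% of all protein-coding genes, and their median was 3.08 TPM. Zhx1, which encodes a partner of Zhx2, had 15.0 and 15.6 TPM against the 1.05 and 1.00 TPM of Zhx2. Zbtb45, the relative of Zbtb20, had 15.2 and 13.3 TPM against 3.30 and 3.47 TPM. Homez had 3.59 and 3.48 TPM, Zhx3 2.73 and 2.51 TPM and Zfhx2 2.09 and 2.04 TPM. Zfhx4 had 1.19 TPM on average. In the zinc finger homeobox group, Zfhx3 thus stood close to Zfhx2 and above Zfhx4, while in the other groups the listed repressor was below its relative or relatives, with Zbtb20 subject to the division of its models.

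The genes reported to respond to Zhx2 in mouse liver, Afp aside, were next listed. Of 8, 4 were detected, where 29.6% of all mouse genes and 54.5% of protein-coding genes were. The imprinted RNA H19 had 278 TPM in replicate 1 against 283 TPM in replicate 2, the proteoglycan gene Gpc3 242 and 240 TPM, the lipoprotein lipase gene Lpl 51.7 and 48.7 TPM and Tff3 2.02 and 1.92 TPM. H19 and Gpc3 are, as Afp is, reported to be silenced with the help of Zhx2 after birth. Elovl3 had 1 read in replicate 1 and 0 in replicate 2. No reads were assigned to Cyp2b9, Cyp2a4 or the urinary protein gene Mup20, and a floor of 3 reads allows up to 0.0536, 0.0589 and 0.115 TPM in replicate 1, with 0.0579, 0.0636 and 0.124 TPM in replicate 2. Genes of the Cyp2a, Cyp2b and Mup families have near-identical copies, so reads of these could have been assigned to a relative.

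**Figure D5:**
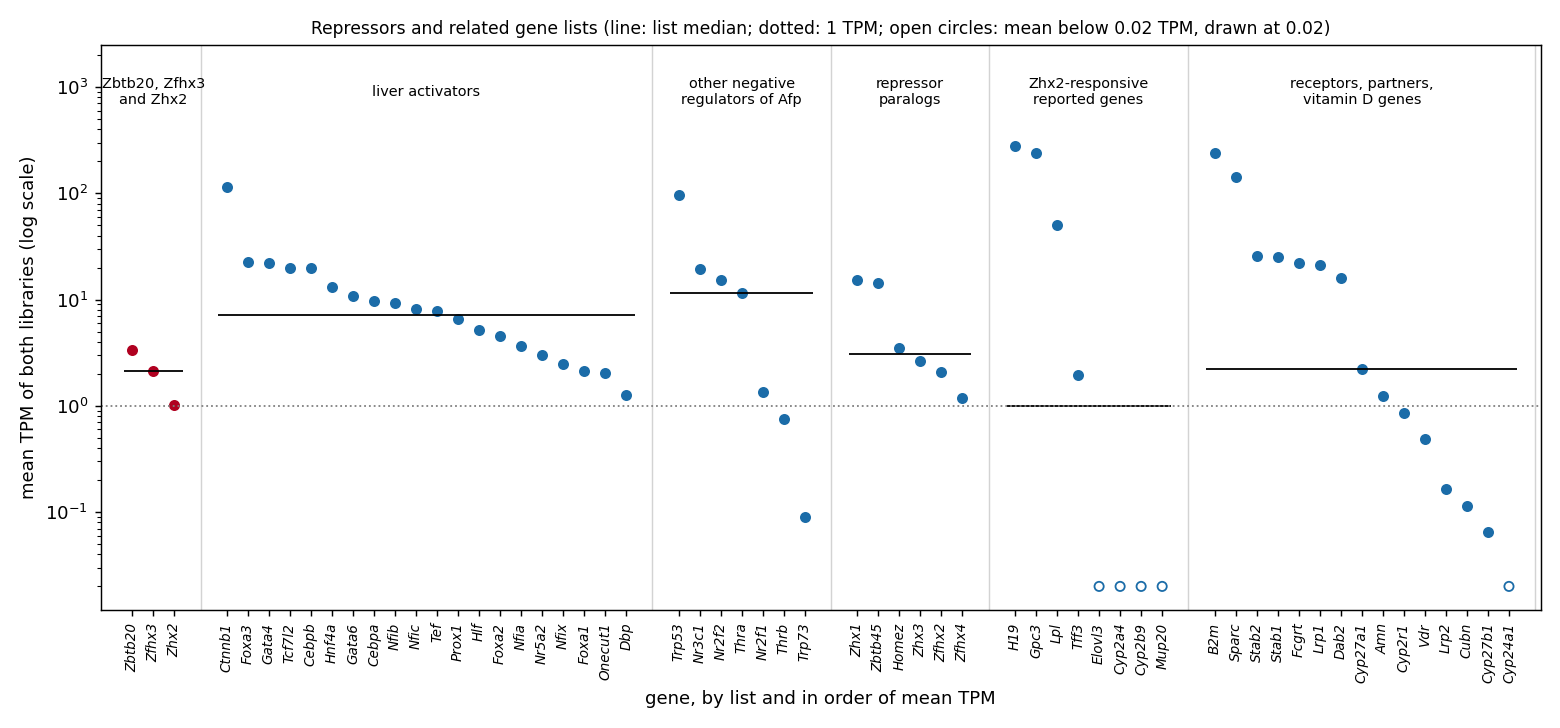
Mean TPM of both libraries, on a log axis, of the 3 repressors and of genes of the 5 lists, with not every activator drawn. Lines mark medians of the whole lists, the dotted line 1 TPM, and open circles genes below 0.02 TPM. The repressors lie below the medians of the activators, 7.18 TPM, and of the other negative regulators, 11.4 TPM. All lie above that of the Zhx2-responsive genes, 0.99 TPM. Zbtb20 alone lies above those of the paralogs, 3.08 TPM, and of the receptors, partners and vitamin D genes, 2.22 TPM. Zbtb20 is drawn highest of the repressors at 3.39 TPM, but stood at 0.192 of Zfhx3 and 0.350 of Zhx2 per length of the longest model.

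Of 15 genes of receptors, partners and vitamin D metabolism, 9 were detected, where 54.5% of all protein-coding genes were, and the list median was 2.22 TPM. Both chains of the neonatal Fc receptor, which returns albumin to the circulation, were present, with B2m at 244 TPM in replicate 1 against 237 TPM in replicate 2 and Fcgrt at 22.1 and 21.7 TPM. Sparc, whose protein binds albumin, had 138 and 147 TPM. The scavenger receptor genes Stab2 and Stab1 had 27.6 and 23.5 TPM and 24.8 and 25.4 TPM. The megalin and cubilin genes Lrp2 and Cubn, whose receptor takes up albumin and Gc in the kidney, had 0.08 and 0.25 TPM and 0.06 and 0.17 TPM. Other genes of that uptake route were detected, with the adaptor gene Dab2 at 14.8 and 17.3 TPM and Amn, which encodes the membrane partner of cubilin, at 1.32 and 1.17 TPM, and the related receptor gene Lrp1 had 19.6 and 22.8 TPM. Among vitamin D genes, the hydroxylase gene Cyp27a1 had 2.00 and 2.44 TPM, Cyp2r1 0.57 and 1.14 TPM from 18 and 33 reads, and the receptor gene Vdr 0.40 and 0.57 TPM. The activating enzyme gene Cyp27b1 had 0.08 and 0.05 TPM, and Cyp24a1, of vitamin D breakdown, had no reads, which allows up to 0.0275 TPM in replicate 1 against 0.0297 TPM in replicate 2.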

How the data were processed

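The authors deposited, for each of the 2 libraries, a gene table and a transcript table on assembly mm10 with GENCODE M4, per the file headers. The expected counts were deposited as the quantifier's estimate of how many reads each gene or transcript gave, with no scaling for depth. The deposited TPM values are scaled by length and share one total with tRNA and spike-in entries, so an abundant class such as globins lowers every other value. Which aligner and quantifier were used is not given in the sources used here. Protocols in the labels name mirVana extraction and 10 ng of RNA and link a manual of a SMARTer kit for low input. No strandedness is given, so whether reads of genes on opposite strands were told apart could not be checked. The libraries held 37.6 M and 34.7 M expected counts (replicates 1 and 2), with 2.94% and 3.19% in spike-ins.

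Symbols were matched for 42462 of 43346 mouse gene identifiers, and gene coordinates came from GENCODE M21 (GRCm38, the same assembly). Effective length was length minus 99. Intervals are exact 95% Poisson or Clopper-Pearson intervals on expected counts rounded to whole numbers. They cover counting error only, as do floors of 3 reads, since reads copied by PCR and not tagged by molecule are not independent. Log2 ratios between the pools added 0.1 to both TPM values, which understates low genes. Promoters came from RefSeq tables (GRCm38.p6), and proteins were not analysed here. Alternatives used edgeR 4.0.16 (TMM) and DESeq2 1.42.0 size factors in R 4.3.3. Tables were made with Python 3.11.15, pandas 2.3.3 and scipy 1.17.1, and the log2 ratio between the pools was tested on simulated counts.

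The members and lists were chosen with earlier results of these data known. Genes named were all 7 members, protein-coding genes within 500 kb of the family, the nearest in level, and from each list the 5 highest and those with no reads. Dbp, Zfhx4 and the other genes of receptors, partners and vitamin D metabolism were added after their values were seen. Some of the listed genes are not reported here by name.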

Additional observations from a re-analysis of the deposited data

How the results depend on the processing

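No paired analysis was possible because the design has 1 group. Of the ratios within a library, 3 changed direction: Zbtb20 to Zhx2 per longest transcript model (0.350), and Zbtb20 to Zfhx3 per longest model (0.192) and by undivided counts (0.314). Zbtb20 to Zhx2 by undivided counts was 2.15 and Afp to Afm per longest model 828. With TPM rescaled over mouse genes alone, means were 957 for Alb, 5522 for Afp, 3.58 for Zbtb20, 2.23 for Zfhx3 and 1.08 for Zhx2. Without globin genes they were 1317 for Alb, 7600 for Afp, 11.0 for Afm, 39.9 for Gc, 4.93 for Zbtb20, 3.07 for Zfhx3 and 1.49 for Zhx2. Centring on the spike-ins gave log2 ratios between the pools of 0.092 for Alb, 0.16 for Afp and -0.30 for Gc. Zbtb20 and Zfhx3 then lay above equality as well, at 0.05 and 0.04, within their counting intervals. It also turned the split of genes past the size limit to 1138 higher and 348 lower in replicate 1, against 489 higher and 641 lower.

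The number of genes past the size limit, 1130 of 13017 tested, became 7428 of 23518 with no filter. It was 2718 of 16173 at a mean expected count of 10 and 110 of 8369 at 500. With a pseudocount of 1 it was 541 of 13017. The share of Afm-201 was 90.0% by reads, that of Zfhx3-201 98.96% by reads, and that of Zbtb20-202 39.1% among coding models. By a limit of 10 reads, 1 neural marker was detected. The other 110 values stayed within the spread between the libraries, the counting interval or, for counts of genes, 1.5 times. Leave-one-out values are among them, but with 2 libraries these always lie within the SD of the mean, so they tested nothing. Leaving out a library gives the value of the other, so each pair of values in the text is that range. Reads limit Zhx2 most, at 142 and 125.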

Other observations

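Other annotated genes overlap the members, and their values bear on how reads were divided. Within Zbtb20, the pseudogene BC002163 had 2.21 TPM in replicate 1 against 2.59 TPM in replicate 2 from 15.3 and 16.6 estimated reads, and the antisense gene Gm9968 had 9 and 10 reads. Within Zfhx3, Gm38042 had 47 and 49 reads, or 0.29 and 0.33 TPM. The genes antisense to Zhx2, Gm16006 and 9330154K18Rik, had no reads. M21 also places Gm43449 opposite to Afp, and it was not analysed here.

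The genes nearest in mean TPM to the lower members were of varied kinds. Gc lay between Arhgef2 and Ptpn6 (a tyrosine phosphatase gene of blood cells) above and Sdc4 and Serping1 below, all at 27.4 TPM. Afm lay between Slc7a6 and Tent4b above and Poc1b and Npc1, for a cholesterol transporter, below. Zbtb20 lay between Rasgrp3 and Gnai1 above and Uroc1, of histidine breakdown, and Epop below. Zfhx3 had the same mean, 2.11 TPM, as Adcy4, Cntln, Micu3 and Hspa2, and Zhx2 stood beside Them6, Zscan18, D130040H23Rik and Spata1.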
